A study of Saccharomyces cerevisiae with 7 samples.

Results

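The hour between 3 and 4 h of meiosis was examined in budding yeast (Saccharomyces cerevisiae) as the log2 value of each open reading frame (ORF) at 4 h minus its log2 value at 3 h. All 5635 ORFs with a value at both times were used, of 6141 in the table. The 7 samples of the series are 1, 2, 3, 4, 5, 6 and 8 h of a meiotic time course, and all carry Spo11Y135F, a mutant of the protein that makes the DNA breaks of meiotic recombination, with its catalytic tyrosine exchanged. No wild-type strain was analysed here, and the labels give neither strain background nor ploidy. On each two-colour array, cDNA of the time point (Cy5) was set against a pool of mRNA from the whole time course (Cy3), and the deposited value is the log2 of that ratio relative to the ratio at 0 h. The value at 0 h and the pool cancel in the difference between 2 times, if both columns were divided by the same 0 h ratio.

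Each time has 1 column of values, so the difference between 3 and 4 h has no replicate error, no test was made, and n = 1 at each time for every value below. The series' design text mentions 2 cultures, but no source used here says how they enter the single column. An ORF is counted below when it was at least 2-fold higher or lower at 4 h, a difference of at least 1 or at most -1. The number of arrays limits the precision, and signal over background is unknown. A value is relative to the same gene's own value at 0 h, so values do not rank genes by abundance. In bulk RNA a higher share of a transcript in more cells and more of it per cell cannot be told apart.

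Yeast meiosis runs as a cascade of transcription. Ime1 starts the early genes of replication and recombination, and the transcription factor Ndt80 then starts the middle genes, which carry the nuclear divisions and build the prospore membrane and spore wall. Before that, Sum1 with Rfm1 and the deacetylase Hst1 holds middle genes off, and Ndt80 and Sum1 compete for the same promoter element. Recombination intermediates normally hold Ndt80 back through a checkpoint, and a strain that makes no breaks lacks that signal.

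At 4 h 335 ORFs were at least 2-fold higher than at 3 h (5.94% of 5635), and 74 were at least 2-fold lower (1.31%). Among the higher ones 112 differed at least 4-fold, 61 at least 8-fold and 24 at least 16-fold, while no ORF was 4-fold lower. The median difference over all ORFs was -0.06, with quartiles of -0.35 and 0.27, and the median absolute deviation was 0.31. Higher ORFs made up 81.9% of all those counted, but 61.4% after quantile normalization between the columns (372 higher, 234 lower). The 4 h column had a wider spread than the 3 h column, with standard deviations of 1.06 and 0.86. Just inside the 2-fold limit on the high side lay PEX28 and YOR139C, and just outside it APC4 and TOM40, all at 1.00 when rounded.

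**Figure D1:**
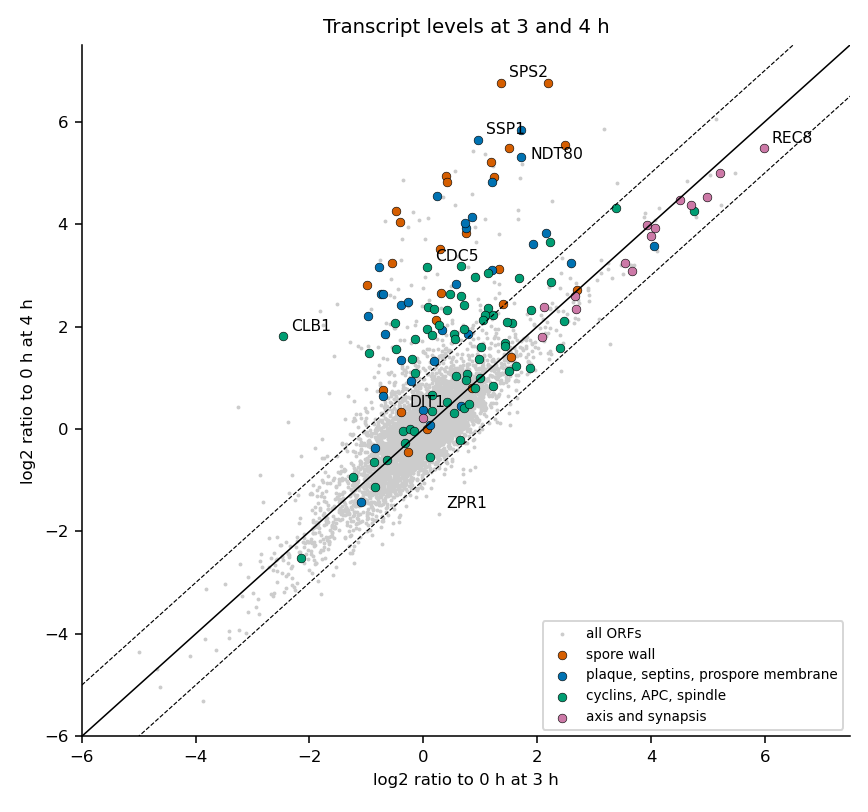
Log2 ratio to 0 h at 4 h (vertical axis) against that at 3 h (horizontal axis) for 5635 ORFs in grey, with members of gene lists in colour; the solid line marks equal values and the dashed lines a 2-fold difference. Most spore wall and prospore membrane genes lie above the upper dashed line, with SPS2 at 1.36 and 6.75. They are 10 of 13 glucan and chitosan genes, 9 of 12 outer wall genes and 12 of 14 prospore membrane genes. Genes of the chromosome axis and synapsis, in the values as deposited, lie along the solid line, with REC8 at 5.99 and 5.48. After quantile normalization 13 of 14 axis and synapsis genes were at least 2-fold lower.

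The gene lists used here hold 137 different genes with values that are regulators of the middle programme or take part in the divisions, the prospore membrane or the spore wall. Of these, 76 were at least 2-fold higher at 4 h, 55.5% against 5.94% of all ORFs, and 0 at least 2-fold lower; their median difference was 1.20 against -0.06. The absence of lower genes holds for the values as deposited: after quantile normalization 66 of the 137 were at least 2-fold higher and 11 lower, and with columns scaled to equal standard deviation 65 and 6. The remaining 259 of the 335 higher ORFs are outside these lists. The lists were chosen with earlier results of these data known, so the counts are a description. The counts of the single lists below are those of the values as deposited.

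Some of these genes left the 2-fold limit when the columns were rescaled. Quantile normalization took PDS1 to 0.24, CLB5 to 0.38, GSC2 to 0.46, DON1 to 0.50, ADY3 to 0.55, TUB3 and SPO12 to 0.68, CDC27 to 0.76, and HST1 and SPO71 to 0.86. With columns scaled to equal standard deviation 8 of these 10 were likewise under 1, all but DON1 (1.08) and ADY3 (1.13), and KAR3 (0.97), SPO14 (0.98) and ACM1 (0.99) joined them. All of them remained higher at 4 h than at 3 h under both scalings.

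The transcript of NDT80 (YHR124W) was at 1.51, 1.07 and 1.74 at 1, 2 and 3 h, at 5.17 at 4 h, and at 7.24, 7.47 and 5.48 at 5, 6 and 8 h. It was thus 10.8-fold higher at 4 h than at 3 h, a difference of 3.43. The kinase gene IME2 was already at 5.14 at 3 h and stood at 6.06 at 4 h, a difference of 0.91. IME1 was at 3.50 and 3.03. A pair of regulators differed more than NDT80 did, PES4 (YFR023W, 1.09 at 3 h and 5.36 at 4 h) and MIP6 (YHR015W, 0.35 and 4.53), which encode related RNA-binding proteins.

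Among the genes of the repressor of middle genes, HST1 (YOL068C) was at 0.85 at 3 h and 1.98 at 4 h, a difference of 1.12 that was under 1 with rescaled columns, while SUM1 (YDR310C) was at -0.27 and 0.14 and RFM1 at 0.41 and 0.74. SUM1 kept between -0.27 and 0.94 over all 7 times. RIM4, an RNA-binding repressor of translation, was at 2.43 and 3.06, and MUM2, a subunit of the mRNA methyltransferase complex, had the lowest difference of the list, -0.74. In all 4 of the 13 regulators were at least 2-fold higher (NDT80, PES4, MIP6 and HST1) and 0 lower, with a median difference of 0.41. After quantile normalization 3 were higher and 3 lower, and with columns scaled to equal standard deviation 3 and 2, so the balance of this list rests on the scale of the columns.

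B-type cyclins, which drive S phase and the nuclear divisions with the kinase Cdc28, were at least 2-fold higher at 4 h except for CLB2. CLB1 (YGR108W) was at -0.57, -2.57 and -2.46 at 1, 2 and 3 h and at 1.81, 3.30, 4.70 and 2.53 from 4 h on. It crossed its 0 h value within the hour, and its difference of 4.27 was 19.3-fold. CLB4 (0.66 and 3.18), CLB6 (0.66 and 2.60), CLB5 (1.68 and 2.95) and CLB3 (-0.14 and 1.09) differed by 2.52, 1.94, 1.27 and 1.23. The exception, CLB2 (YPR119W), had values of -0.87 and -0.63 at 3 and 4 h and exceeded its 0 h value by at most 0.87, at 6 h. CLB1 and CLB6 are convergent neighbours in gene order.

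CDC5 (YMR001C), the polo kinase that starts resolution of joint molecules and exit from pachytene, was at -0.78, -1.26 and 0.07 before the step and at 3.17, 3.61, 3.47 and 1.75 after it. The values from 4 h on all lie above those from 1 to 3 h. With the 5 cyclins it made 6 of 14 genes of the list at least 2-fold higher, and 0 were lower. The kinase subunit gene CDC28 was at 1.01 and 1.60, DBF4 at 1.56 and 2.08, and MIH1, a phosphatase gene, had the lowest difference, -0.41.

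Most subunits of the anaphase-promoting complex (APC), the ubiquitin ligase that starts anaphase, were higher at 4 h. Of 17 genes measured, 10 were at least 2-fold higher, 0 lower, and the median went from 0.71 to 1.96. CDC26 (-0.50 at 3 h, 2.07 at 4 h), CDC16 (0.41, 2.32), APC2, the cullin subunit (0.07, 1.95), APC11, the RING subunit (0.28, 2.03), CDC23 (0.72, 2.42), APC5 (0.15, 1.83) and CDC27 (1.14, 2.36) are subunits. The activator CDC20 (YGL116W) was at -0.71, -0.38 and -0.95 before and 1.49, 2.91, 2.14 and 1.80 after the step. PDS1 (YDR113C), securin, which the APC destroys, was at 2.23 and 3.65. ACM1, an inhibitor of the activator Cdh1, differed by 1.25, but by -0.20 for 4 h against 2 h. CDC20, PDS1 and ACM1 count among the 10 but are not subunits.

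AMA1 (YGR225W), the meiosis-specific activator, had 2.17, 2.47 and 3.39 as its first 3 values, followed by 4.31 at 4 h and 6.45 at 5 h. Its difference of 0.92 missed the 2-fold limit, whereas its value at 5 h exceeded that at 2 h by 3.98. MND2, which restrains Ama1, had the lowest difference of the list with -0.31 (0.71 and 0.40). ESP1, separase, was at -0.64 and -0.61, SWM1 at -1.24 and -0.94, and DOC1 at 1.43 and 1.69. APC1 and CDH1 had no value.

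Spindle, kinetochore and spindle pole body genes were split. Of 36 measured, 12 were at least 2-fold higher, 0 lower, and 11 had a difference below 0; the median difference was 0.28. After quantile normalization 10 were higher and 5 lower, and with scaled columns 9 and 3. The highest belonged to SPC42, a core protein of the spindle pole body (0.09 and 2.37), HRR25, a casein kinase (0.47 and 2.63), MPS1, a kinase of pole body duplication and the spindle checkpoint (0.19 and 2.35), and MAM1, the meiosis-specific monopolin subunit (0.90 and 2.96). These 4 differed by 2.29, 2.16, 2.16 and 2.06. STU2, a microtubule polymerase (-0.48 and 1.56), the pole body genes CNM67 (1.14 and 3.05) and BBP1 (-0.20 and 1.38) and SGO1, shugoshin, which guards centromeric cohesion (-0.14 and 1.76), differed by 2.04, 1.92, 1.58 and 1.90.

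The motor genes CIN8 and KAR3 differed by 1.32 and 1.20, SPO12 by 1.14 and the alpha-tubulin gene TUB3 by 1.08. The tubulin genes TUB1 and TUB2 were at 2.24 and 1.47 at 3 h already and differed by 0.64 and 0.63. SPO13, which with monopolin sets the first division apart, had values of 4.75 and 4.25, and IPL1, the Aurora kinase, of 2.47 and 2.11 at 3 and 4 h. Both were thus high before the step. DAM1, of the kinetochore ring that binds microtubules, had the lowest difference with -0.85.

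Genes of spore formation differed most. The meiotic outer plaque is the modified face of the spindle pole body from which the prospore membrane grows, and the leading edge coat lines the rim of that membrane. Of 8 such genes 7 were at least 2-fold higher at 4 h, and all 8 had a difference above 0 (median 2.53). SSP1 (YHR184W), of the leading edge coat, was at 0.36, 0.12 and 0.97 and then at 5.64, 6.98, 8.14 and 5.49. Its difference was 4.68. The plaque genes SPO74 (1.21 and 4.82), SPO21 (0.76 and 3.92) and ADY4 (0.58 and 2.83) differed by 3.61, 3.16 and 2.25, and the leading edge genes DON1 (2.16 and 3.84) and ADY3 (1.94 and 3.61) both by 1.67, of which quantile normalization left 0.50 and 0.55. IRC10 was at -0.40 and 2.42. MPC54, another plaque gene, was at 2.40 and 2.59 at 2 and 3 h already and at 3.24 at 4 h, the lowest difference of the list with 0.65.

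Septins and the Gip1 phosphatase group were split. SPR28 (YDR218C) and SPR3 (YGR059W), the sporulation septins, were at 1.71 and 1.72 at 3 h and at 5.84 and 5.31 at 4 h. The mitotic septins CDC3 (1.21 and 3.11) and CDC10 (0.32 and 1.93) differed by 1.90 and 1.61, while CDC11, CDC12 and SHS1 differed by -0.20, -0.05 and 0.47. GIP1, which brings the phosphatase Glc7 to the septins of the prospore membrane, was at -0.97 and 2.20, and GLC7 itself at -0.01 and 0.36. YSW1 was at -0.27 and 2.48. Thus 6 of 10 were at least 2-fold higher and 0 lower.

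Of 14 genes of prospore membrane growth and its kinases, 12 were at least 2-fold higher and 0 lower, and the median went from -0.30 to 2.25. The kinase gene SPS1 (YDR523C) was at 0.57, 0.56 and 0.23 and then at 4.54, 7.14, 8.49 and 7.14. SMK1, a sporulation MAP kinase, and SSP2, its activator, were at -0.74 and -0.71 at 3 h and at 2.64 and 2.63 at 4 h. SPO20, the sporulation SNARE, was at 0.73 and 4.02, and its partner SSO1, which also serves growing cells, at -0.21 and 0.94. SEC9, the SNARE of growing cells that SPO20 stands in for, was at -1.10 and -1.43.

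SPO77 (-0.79 and 3.17), SMA2 (0.86 and 4.14), SMA1 (-0.67 and 1.86), SPO75 (-0.40 and 1.36), SPO73 (-0.71 and 0.64), SPO14, phospholipase D (0.20 and 1.32), and SPO71 (0.79 and 1.85) complete the higher genes. SPO1 (YNL012W) went the other way with 4.05 and 3.57, the lowest difference of the list (-0.48). At 3 h it was the gene of this list farthest above 0 h, and it is the single one that was at least 2-fold above 0 h then.

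The spore wall is laid down between the prospore membranes in layers of mannan, glucan, chitosan and dityrosine. In the list of glucan and chitosan layers 10 of 13 genes were at least 2-fold higher, 0 lower, with a median difference of 3.98, the largest of the lists. SPS2 (YDR522C), a wall protein of sporulation, was at 1.37, 1.11 and 1.36 and then at 6.75, 8.33, 9.00 and 7.26. Its difference of 5.39 was the largest of all ORFs, and it was 42.0-fold higher at 4 h than at 3 h. Its paralogue SPS22 (YCL048W, -0.48 and 4.25) differed by 4.73, SPO19 (0.40 and 4.93) by 4.54, the glucan-remodelling enzymes GAS2 (-0.41 and 4.05) and GAS4 (1.20 and 5.22) by 4.46 and 4.02, and the glucanase SPR1 (1.51 and 5.48) by 3.98.

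CDA1 (YLR307W) and CDA2 (YLR308W), the chitin deacetylases that make chitosan, were at 0.42 and 0.29 at 3 h and at 4.82 and 3.51 at 4 h. The genes of chitin synthesis, CHS3 (0.86 and 0.80) and SHC1 (1.53 and 1.40), did not share the step, and SHC1, which activates Chs3 in sporulation, was highest at 8 h with 3.33. Of the glucan synthase genes GSC2, also called FKS2, was at 1.40 and 2.44, a difference of 1.04, and FKS3 at 2.71 at both times. SHC1 had the lowest difference of the list, -0.14. CRR1, a putative wall transglycosidase, was at 1.33 and 3.13.

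The outer wall list held genes on both sides of the step: 9 of 12 were at least 2-fold higher, 0 lower (median difference 2.70). LDS1 (YAL018C) and LDS2, lipid droplet proteins of the forming wall, were at 2.20 and 2.48 at 3 h and at 6.75 and 5.54 at 4 h. DTR1, the transporter of the dityrosine precursor, was at -0.99 and 2.80, RRT12, a protease gene, at -0.56 and 3.25, LOH1 at 1.24 and 4.92, OSW2 at 0.75 and 3.82, and MUM3 at 0.31 and 2.65. The enzymes that make the dityrosine precursor were highest at 8 h. DIT1 (YDR403W) was at -0.38 and 0.32 and first exceeded 1 at 6 h with 3.75. DIT2 was at -0.71 and 0.75, a difference of 1.46 that counts among the 9, and at 5.72 at 8 h. SPS100 (YHR139C), a late wall gene, had the lowest difference with -0.19 (-0.26 and -0.46) and was at 3.45 at 8 h.

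**Figure D2:**
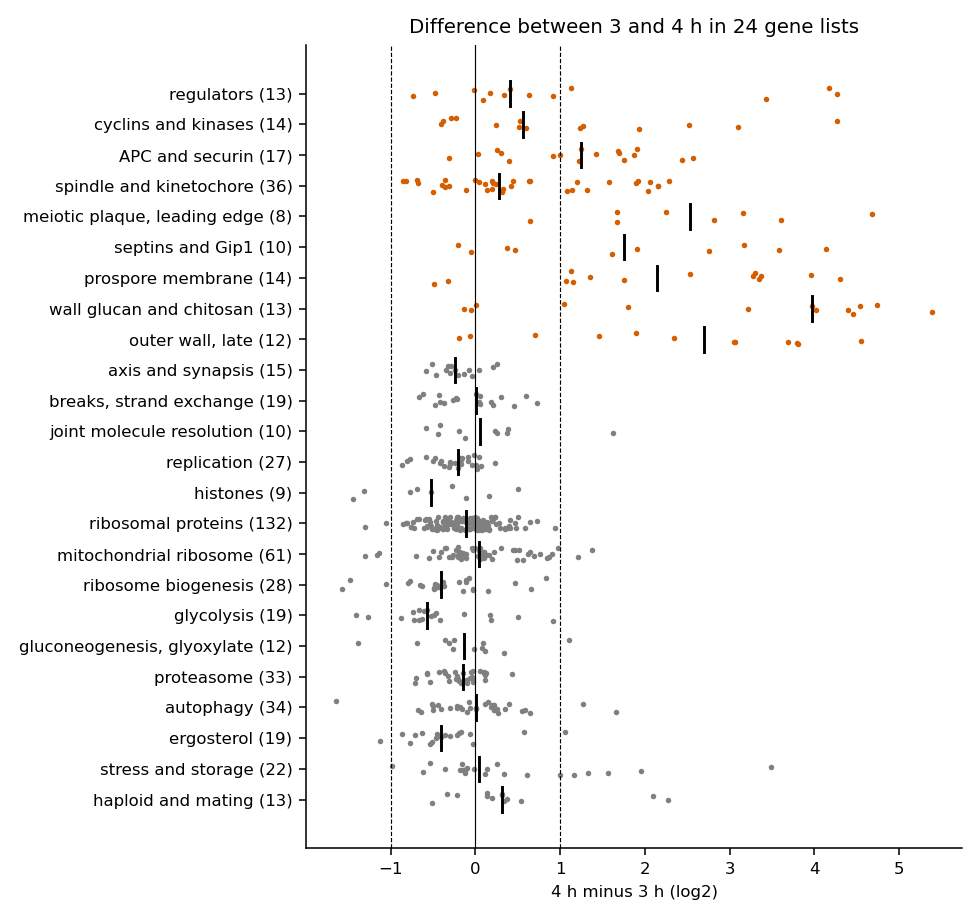
Difference between 4 and 3 h (log2, horizontal axis) for every member with a value of 24 gene lists, with the number of members in brackets; each point is a gene, the black bars are list medians and the dashed lines mark 2-fold. The 9 lists in orange hold 76 genes beyond the upper dashed line and 0 beyond the lower one (66 and 11 after quantile normalization), while the axis and synapsis, proteasome and replication lists in grey have no member beyond either in these values as deposited; 13 axis genes and 5 replication genes pass the lower one after quantile normalization.

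Early genes were compared next, against 5.94% of all ORFs at least 2-fold higher and 1.31% at least 2-fold lower. In lists this short, few such genes or none lie near those shares. In the values as deposited, none of 15 genes of the chromosome axis and synapsis differed 2-fold, and 14 of them were still at least 2-fold above 0 h at 4 h. The list median was 3.94 at 3 h and 3.76 at 4 h. REC8 (YPR007C), the meiotic cohesin, was at 3.89, 4.57, 5.99, 5.48, 4.43, 2.26 and 2.03 over the 7 times, so its lower values came after 4 h. ZIP2 (2.13 and 2.38) and SPO22 had the highest differences, 0.25 and 0.21; the row of SPO22 lay between 0.00 and 0.21 and had no value at 6 h. PCH2 (3.66 and 3.08) and REC8 had the lowest, -0.58 and -0.51.

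This depended on the scale of the columns. After quantile normalization 13 of 14 axis and synapsis genes were at least 2-fold lower at 4 h (median -1.33), against 234 of all 5585 ORFs. With columns scaled to equal standard deviation it was 6 of 15 (median -0.95), against 92 of all 5635. The axis and synapsis median of 3.94 at 3 h stands far out in a column with a standard deviation of 0.86. Such scaling stretches that column relative to the 4 h column. Whether the axis genes were level or lower relative to other transcripts at 4 h therefore rests on how the columns are scaled.

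For break formation and strand exchange the medians at 3 and 4 h were 1.70 and 1.47, and 0 of 19 differed 2-fold. NAM8, a splicing factor (0.06 and 0.78), and SAE2 (0.25 and 0.86) had the highest differences; DMC1, the meiotic recombinase (4.80 and 4.14), and REC114 (4.10 and 3.49) had the lowest. After quantile normalization 7 of the 19 were at least 2-fold lower, against 234 of all 5585 ORFs. Of 10 genes of joint molecule resolution EXO1 (YOR033C), an exonuclease that also acts in crossover formation, was the single one to differ 2-fold, with values of 1.25, 2.87 and 3.96 at 3, 4 and 5 h. SGS1, a helicase, differed by 0.38 and YEN1, a resolvase, by -0.44.

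**Figure D3:**
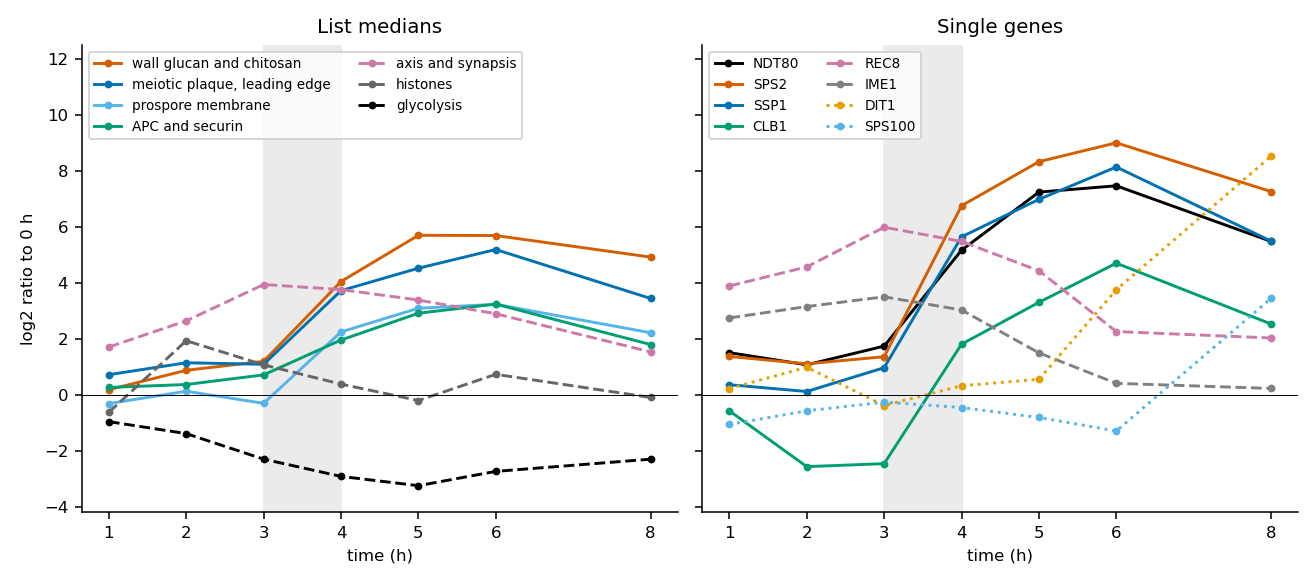
Log2 ratio to 0 h (vertical axis) against time (hours), with the step from 3 to 4 h shaded; the left panel shows medians of 7 lists and the right panel 8 genes, 1 array a time. NDT80, SPS2, SSP1 and CLB1 climb together within the shaded hour, REC8 and IME1 pass their highest values at 3 h, and DIT1 and SPS100 first exceed 1 at 6 and 8 h.

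In the other lists the counts are read against 5.94% of all ORFs at least 2-fold higher and 1.31% at least 2-fold lower, and none of these lists had more than 3 members at least 2-fold lower in the values as deposited. The histone medians at 3 and 4 h were 1.07 and 0.38; the H2A genes HTA1 (1.65 and 0.33) and HTA2 (1.52 and 0.09) were 2 of 9 at least 2-fold lower, while HHF2 (0.54 and 0.69) and the linker histone HHO1 (1.57 and 2.07) were not lower. Replication genes had 0 of 27 beyond 2-fold in either direction and a median difference of -0.20. DPB2 and POL3 were highest with 0.23 and 0.07, and RFC2 and RFA1 lowest with -0.86 and -0.81. After quantile normalization 5 replication genes were at least 2-fold lower.

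Ribosomal protein genes stayed far below 0 h with medians of -1.76 and -1.92, and 0 of 132 were at least 2-fold higher and 2 lower, RPP1A (-0.53 and -1.83) and RPS10A (-1.15 and -2.20). RPL12B and RPL13A were highest, with differences of 0.94 and 0.73. The list's median difference of -0.11 turned to 0.09 after quantile normalization and 0.26 with scaled columns. Ribosome biogenesis genes had 3 of 28 at least 2-fold lower, NOP56, a box C/D snoRNP protein (0.69 and -0.88), IMP3 (0.69 and -0.79) and NOP15 (-0.09 and -1.14), and 0 higher. DBP3 and MAK5 were highest with 0.83 and 0.66. With rescaled columns RPS10A (-0.79 and -0.72) left the 2-fold limit. NOP15 was at -1.10 after quantile normalization but at -0.93 with scaled columns. The biogenesis list then had 1 higher and 3 lower genes after quantile normalization, and 0 and 2 with scaled columns. In the list of mitochondrial ribosomal proteins, which was picked by gene name and does not hold MNP1, 2 of 61 were higher (3.28%), MRPS17 and MRPL37 (1.37 and 1.22), and 3 lower, MRPL44, RSM19 and MRP17 (-1.30, -1.16 and -1.14).

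Glycolytic medians at 3 and 4 h were -2.30 and -2.92, with TPI1 (-1.80 and -3.21) and PGI1 (-1.58 and -2.85) at least 2-fold lower, 2 of 19, and 0 higher; PFK1 and PFK2 had differences of 0.91 and 0.50. The list's median difference of -0.57 became 0.01 with columns scaled to equal standard deviation, where TPI1 (-0.92) and PGI1 (-0.82) were no longer 2-fold lower. In the gluconeogenesis and glyoxylate list PCK1 was higher (-2.36 and -1.25) and IDP2 lower (-1.23 and -2.61), 1 of 12 each; ICL1 differed by 0.33 and MLS1 by -0.69. Of the proteasome genes 0 of 33 lay beyond 2-fold, with all differences between -0.71 (RPT6) and 0.44 (PRE4); RPN2 differed by 0.12 and PRE6 by -0.70.

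Among autophagy genes ATG3 (0.18 and 1.84) and ATG32 (0.55 and 1.82), a mitophagy receptor, were 2 of 34 at least 2-fold higher (5.88%, near the share of all ORFs), and ATG31 (0.91 and -0.74) was lower. ATG7 differed by -0.68. In the ergosterol list ERG25 was higher with 1.06 and ERG3 lower with -1.13 (-0.86 after quantile normalization), 1 of 19 each (5.26%), while ERG13 differed by 0.58 and ERG1 by -0.87. Of the genes used as references 0 of 7 lay beyond 2-fold, but their quartiles of -0.52 and 0.70 were farther apart than those of all ORFs; ALG9 and UBC6 were highest with 0.82 and 0.77, PGK1 and TDH3 lowest with -0.72 and -0.66, and ACT1 differed by -0.38.

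Stress and storage genes had 6 of 22 at least 2-fold higher (27.3%) and 0 lower. SGA1 (YIL099W), the glucoamylase of sporulation that breaks down glycogen, was at 0.95, 1.18 and -0.57 and then at 2.92, 6.84, 7.50 and 7.29. The others were the catalase CTT1 (-1.32 and 0.64), the Hsp70 genes SSA3 (0.51 and 2.08) and SSA4 (0.70 and 2.04), HSP26 (-0.36 and 0.81) and TPS1, of trehalose synthesis (-1.37 and -0.36). SOD1 and TPS2 had the lowest differences, -0.98 and -0.62. In the haploid and mating list STE4, the G-protein beta subunit (-0.28 and 2.00), and STE3, the a-factor receptor (0.93 and 3.03), were 2 of 13 at least 2-fold higher (15.4%), while STE2, STE18 and MFA2 differed by 0.31, 0.54 and 0.34. AGA2 and STE6 were lowest with -0.51 and -0.34.

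The 15 largest positive differences among ORFs with a gene name were those of SPS2, SPS22, SSP1, RRT5, LDS1, SPO19, SPR2, GAS2, HXT14, CDA1, SPS1, PES4, CLB1, PIR5 and MIP6, with differences between 5.39 and 4.18. Those outside the lists above were RRT5 (YFR032C, 0.88 and 5.44), SPR2 (YOR214C, 0.56 and 5.04), HXT14 (YNL318C, -0.19 and 4.24), a member of the hexose transporter family, and PIR5 (YJL160C, -0.27 and 3.94), of the PIR family of wall proteins. Among ORFs without a gene name the largest were YPR078C (-0.35 and 4.87), YJL043W (-0.66 and 4.06), YPR077C (-0.07 and 4.09), YDL187C (-1.82 and 2.31) and YDL186W (0.08 and 4.12). YPR077C and YDL187C have no match in the reference table. The 335 higher ORFs include 60 without a gene name, 17.9% against 16.2% of all ORFs.

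The 15 largest negative differences among ORFs with a gene name were smaller, between -1.93 and -1.34. They were those of ZPR1, a chaperone of a translation elongation factor (0.27 and -1.66), TRM2, a tRNA methyltransferase (0.71 and -1.04), ATG31, MNP1, of the mitochondrial ribosome (0.82 and -0.81), INO1, of inositol synthesis (3.28 and 1.65), NOP56, LSP1, of the eisosome (-0.72 and -2.25), BNA5, of NAD synthesis (-0.56 and -2.05), IMP3, GRE2 (-3.88 and -5.32, a difference of -0.83 after quantile normalization), HTA2, TPI1, IDP2, GAP1, which takes up amino acids (0.04 and -1.30), and ECM15 (-0.43 and -1.82). INO1 and GAP1 went on to lower values at 6 h, with -1.69 and -5.57.

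Before the step the medians of the 335 higher ORFs were close to the 0 h level, with 0.15, 0.20 and -0.15 at 1, 2 and 3 h. At 3 h 254 of them lay within 2-fold of 0 h, 46 at least 2-fold below and 35 at least 2-fold above. Of all 5635 ORFs 4732 lay within 2-fold then, 472 below and 431 above, so a smaller share of the higher ORFs lay within. At 4 h 238 were at least 2-fold above 0 h, 95 within 2-fold and 2 at least 2-fold below, with a median of 1.55. Over all ORFs these counts were 646, 4386 and 603. Both times enter the difference by which the ORFs were chosen. The medians of the last 3 times were 2.52, 2.96 and 1.81. Of the 334 with a value at all times, 190 had their highest value at 6 h and 106 at 5 h. The highest time was 8, 4 and 1 h for 23, 12 and 3. Among all 5585 ORFs with every value, 6, 5, 8, 4 and 1 h were the highest for 1173, 678, 838, 280 and 1156. An ORF counted as higher at 4 h cannot have its highest value at 3 h.

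The 74 lower ORFs had medians of -0.20, 0.03, -1.14, -1.36 and -0.27 at 2, 3, 4, 5 and 8 h. At 4 h 41 of them were at least 2-fold below 0 h, against 603 of all 5635 ORFs. Of the 73 with all values 24 had their highest value at 3 h, 18 at 1 h and 19 at 8 h. Among all 5585 ORFs with every value these counts were 901, 1156 and 838. The choice of these ORFs favours a highest value at 3 h and bars one at 4 h, so the peak times are a description.

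The difference between 5 and 2 h uses neither the 3 h nor the 4 h array. By it 776 of all ORFs were at least 2-fold higher (13.8%) and 781 at least 2-fold lower (13.9%). Of the 335 ORFs higher at 4 h, 295 were also at least 2-fold higher at 5 h than at 2 h (88.1%), 321 had a difference above 0, and 2 were at least 2-fold lower. Of the 112 with a 4-fold step, 111 were at least 2-fold higher by it. The 295 shared ORFs are 38.0% of the 776. Of the 74 lower ORFs 42 were at least 2-fold lower at 5 h than at 2 h (56.8%), and 0 higher. The mean of 5 and 8 h exceeded the mean of 1 and 2 h at least 2-fold for 270 of the 335 (80.6%, against 11.5% of all ORFs) and was at least 2-fold below it for 26 of the 74 (35.1%, against 10.4%).

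By list, the 5 h against 2 h difference was at least 2-fold up for 8 of 8 plaque and leading edge genes, 12 of 14 prospore membrane genes, 10 of 13 glucan and chitosan genes, 12 of 17 APC genes, 9 of 14 cyclin and kinase genes, 7 of 13 regulators, 18 of 36 spindle genes and 7 of 10 septin and Gip1 genes. For the outer wall it was so for 7 of 12, fewer than the 9 of the step. It was at least 2-fold up for 2 of 15 axis and synapsis genes (13.3%, near the 13.8% of all ORFs), and at least 2-fold down for 8 of 9 histone genes and 12 of 19 glycolytic genes.

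**Figure D4:**
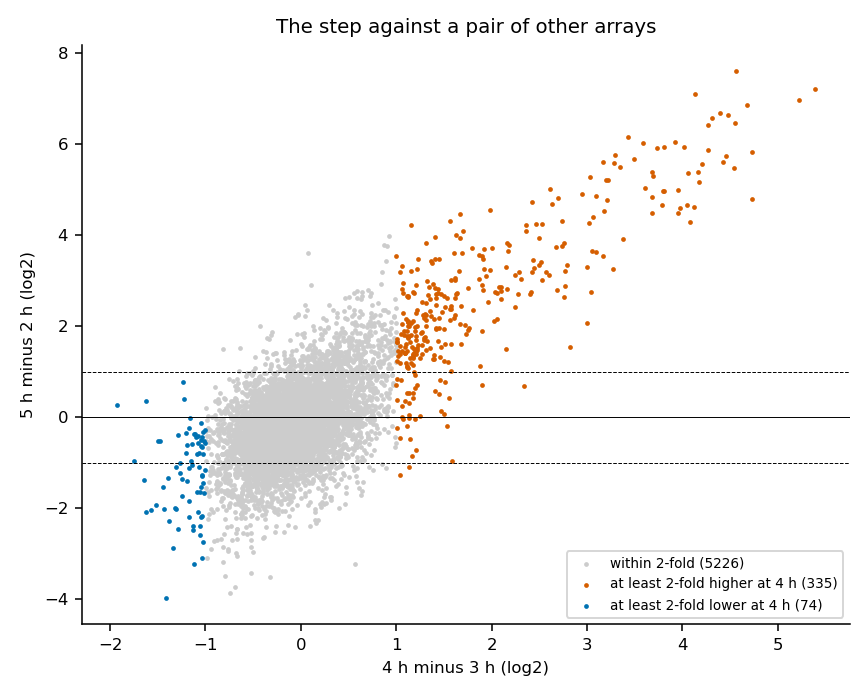
Difference between 5 and 2 h (log2, vertical axis) against the difference between 4 and 3 h (log2, horizontal axis) for 5635 ORFs, with those at least 2-fold higher at 4 h in orange and those at least 2-fold lower in blue; dashed lines mark 2-fold on the vertical axis. Of the 335 orange points 295 lie above the upper dashed line, and of the 74 blue points 42 lie below the lower one.

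Some differences rested on the 3 h array. Against 2 h in place of 3 h, 227 of the 335 were still at least 2-fold higher at 4 h and 24 were not higher at all. Of the 74 lower ORFs 37 were still at least 2-fold lower and 6 not lower. By the same comparison 483 of all 5635 ORFs were at least 2-fold higher and 443 at least 2-fold lower. IRC10 was at 2.45, -0.40 and 2.42 at 2, 3 and 4 h, so that 4 h minus 2 h was -0.036. OSW1 (2.46, 0.23 and 2.13), ACM1, an inhibitor of the APC activator Cdh1 (2.15, 0.71 and 1.96), SPO12 (2.28, 1.09 and 2.23) and DIT2 (0.99, -0.71 and 0.75) were likewise lower at 4 h than at 2 h, with differences of -0.33, -0.20, -0.053 and -0.23. ZPR1 and MNP1 were high at 3 h alone among 1 to 6 h, at 0.27 and 0.82, and at 4 h exceeded their 2 h values by 0.050 and 0.37. Among the higher ORFs 15.8% were at least 2-fold lower at 3 h than at 2 h, against 6.57% of all ORFs. Both differences contain the 3 h array, so a low value in it raises both, whether by error or by a true dip. The cause was not tested.

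**Figure D5:**
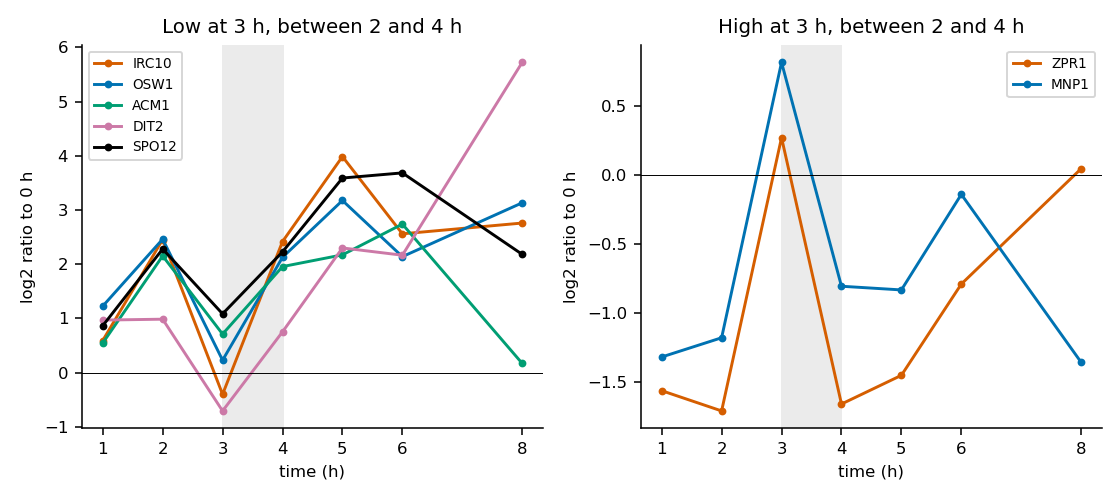
Log2 ratio to 0 h (vertical axis) against time (hours) for 5 genes whose value at 3 h lies below those at 2 and 4 h (left) and 2 genes whose value at 3 h lies above them (right); the step from 3 to 4 h is shaded. IRC10 returns at 4 h (2.42) to its value at 2 h (2.45), and ZPR1 returns to -1.66 from 0.27.

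Position along the chromosomes was not used to choose the ORFs. Of the 301 higher ORFs with a measured neighbour in the gene order of the R64 reference table, 63 had a neighbour that was also at least 2-fold higher (20.9%), against 10.3% of the 5056 ORFs with a measured neighbour. The 33 pairs in which both genes were higher comprised 17 on the same strand, 9 divergent and 7 convergent, of 257, 112 and 132 pairs with at least 1 such gene. By the smaller difference of the pair, the foremost were SPS2 with SPS1 (5.39 and 4.31, same strand), LOH1 with IRC18 (3.68 and 3.92, divergent) and the unnamed neighbours YNL034W and YNL033W (2.49 and 3.81, same strand). The labels give no probe sequences or strands, so transcripts that overlap a neighbour's probe cannot be told apart from that neighbour's own.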

How the data were processed

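The deposited table holds 1 log2 value per ORF and time; the authors, as their design text says, took log2 of the time point to meiotic mix ratio over its 0 h counterpart. Per the labels, Cy5 marked the time point and Cy3 the mix on all 7 arrays. No source used here gives the array platform, background correction, normalization or spot filters. Every title names the mutant, whereas 2 descriptions (1 and 2 h) omit it. Of 6141 ORFs 506 lack a value at 3 or 4 h. Names come from the R64 RefSeq table (5655 matched, 486 not); its coordinates are left out because no build is named for the array.

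The difference of log2 values and the 2-fold limit were computed with Python 3.11.15, pandas 2.3.3 and numpy 2.4.6; plots used matplotlib 3.10.9. The counting code was checked on simulated columns, all built from the 3 h column, with known shifts well beyond the limit. That check does not cover the unequal spreads of the real 3 and 4 h columns. With 1 sample a time, no test, p-value or error was computed. The members, the 25 gene lists and the alternatives were chosen with earlier results of these data known. The text names the members of the 9 middle lists at least 2-fold apart, the lowest member of each list, up to 2 members at either end of other lists with any members beyond 2-fold where these are 8 or fewer, the 15 largest positive and 15 largest negative differences with a gene name and the 5 largest positive ones without a name; further genes, such as AMA1, CLB2 and SUM1, were named after their values were seen. Other scalings, rows, limits and arrays were tried as alternatives. Promoter motifs were not analysed here. A gene that this rule would name is not reported here.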

Additional observations from a re-analysis of the deposited data

How the results depend on the processing

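The counts of 335 higher and 74 lower ORFs were within 1.5 times with median-centred columns, columns of equal standard deviation, the 5585 ORFs with all values and the ORFs matched to the reference. Similar counts did not mean the same ORFs. With scaled columns 290 of the 335 higher and 46 of the 74 lower ORFs remained, among 323 and 92. Quantile normalization gave 372 higher and 234 lower ORFs. Of the ORFs with all values, these held 311 of 334 higher and 56 of 73 lower ones. A 1.5-fold limit gave 700 higher and 537 lower, a 4-fold limit 112 and 0, by construction. With the mean of 4 and 5 h against that of 2 and 3 h the counts were 504 and 279. In comparisons chosen after seeing the data they were 776 and 781 (5 h against 2 h), 809 and 709 (5 h against 3 h), and 483 and 443 (4 h against 2 h). These span other intervals. The split of counted ORFs moved from 81.9% higher to 77.8% with scaled columns and to 61.4% after quantile normalization. For the mean of 4 and 5 h against that of 2 and 3 h it was 64.4%. In the comparisons chosen after seeing the data it was 53.3% (5 h against 3 h), 52.2% (4 h against 2 h) and 49.8% (5 h against 2 h). The excess of higher ORFs thus depended on the columns compared and on their scale.

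Medians of the 9 middle lists had the same sign under all 5 alternatives of scaling, rows and arrays, and 30 of 45 values moved by at most 0.31, the spread used as tolerance. Quantile normalization moved those of the APC (0.76), plaque (2.20), septin (1.41), glucan and chitosan (3.58) and outer wall (2.33) lists. Scaled columns moved those of the regulators (0.080), APC (0.88), septins (1.44), glucan and chitosan (3.31) and outer wall (2.17). The mean of 4 and 5 h against 2 and 3 h gave cyclins 1.08, APC 1.83, plaque 2.94, septins 2.12 and prospore membrane 2.54. Of 85 named higher ORFs 75 stayed at least 2-fold higher after quantile normalization and 74 with scaled columns, and of 15 named lower ones 14 and 13. These 15 are the largest falls among ORFs with a gene name, and a smaller share of all lower ORFs remained. Of the named genes, signs turned without the 3 h array for DIT2 (-0.23), SPO12 (-0.053), IRC10 (-0.036), OSW1 (-0.33) and ACM1 (-0.20) and for the lower genes MNP1 (0.37, and 0.35 at 5 h against 2 h) and ZPR1 (0.050 and 0.26); the cause was not tested. The planned motif shares were not run, since no promoter sequences were used here. No paired analysis was possible because each time has 1 sample. Signal over background is unknown, so a flat row and a transcript that changed little cannot be told apart.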

Other observations

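Beyond the groups above, several further higher genes are given here, chosen after their values were seen. GAL7, an enzyme of galactose use, differed by 3.17, CWP1, a mannoprotein of the growing cell wall, by 3.69, and CTS2, a chitinase homologue, by 4.06. Smaller differences belonged to HXT10, another hexose transporter gene (1.63), and SWI5, a transcription factor of the end of mitosis (1.41).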
